A study of Mus musculus with 33 samples.

Results

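The proteasome subunit genes described here are the 47 mouse genes, of 18193 measured on the arrays, whose symbol begins with Psm followed by one of the letters a to g and a number, and whose probe sets carry that single gene symbol. The rule uses the symbol and no measured value. Together they have 100 of the 34945 probe sets with 1 gene symbol. There were 21 members with 1 probe set and 26 with several, at most 8 (Psmd11), and the score of a gene is the mean over its probe sets. No filter on low values was set, and all 47 were tested. Psme2, an activator subunit, shares its probe set with a related copy and was therefore not a member.

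The study profiled enteric neural crest cells (ENCCs), the migrating progenitors of the gut's nervous system, and whole embryonic gut of the mouse on Affymetrix arrays. ENCCs came from C57BL/6 embryos at embryonic day 14.5 that carried Wnt1-Cre and a LoxP/R26-YFP reporter. In these embryos Cre, driven from the Wnt1 promoter, switches on yellow fluorescent protein in the neural crest lineage, and fluorescent cells were sorted from dissected gut. Sorted cells of each of 9 guts were divided over a pair of fibronectin-coated wells in N2 and B27 medium with FGF and EGF at 20 ng/ml. The treated well also received GDNF, the ligand of the receptor tyrosine kinase RET, at 50 ng/ml, so untreated and treated ENCCs share sorting, culture and both growth factors. The sources used here state no length of culture. The whole guts were uncultured wild-type C57BL/6 tissue of the same embryonic day, cut from duodenum to anus, although the cell type entry in their labels reads as if ENCCs had been taken from them. Cell source, culture, sorting and transgene therefore differ at once between ENCCs and whole gut and cannot be told apart. There were 12 untreated and 13 GDNF-treated ENCC arrays and 8 whole-gut arrays, run in 2 batches, with the whole guts only in batch 2.

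The proteasome degrades proteins tagged with ubiquitin. Its barrel-shaped core particle is built from rings of alpha subunits, which form the gate, around rings of beta subunits, of which Psmb5, Psmb6 and Psmb7 carry the proteolytic sites. Psmb8, Psmb9 and Psmb10 replace these in the immunoproteasome, a form best known from immune cells and from cells exposed to interferon, and Psmb11 takes the place of Psmb5 in the thymus. The regulatory particle that caps the core holds a ring of ATPases (the Psmc genes), which unfold and thread the substrate, and non-ATPase subunits (Psmd genes) that bind and remove ubiquitin. Dedicated chaperones assist assembly: Psmg1 to Psmg4 for the core, and Psmd5, Psmd9 and Psmd10 for the base of the regulatory particle. Alternative activators (Psme genes) and the inhibitor Psmf1 bind the ends of the core.

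The deposited values are not expression levels. Within each array they follow the normal quantiles of the rank order (largest deviation 5.0e-06, range -4.08 to 4.08). Over the 7 RNAs read in both batches, the mean score of a probe set lay near 0 in each batch (SD over probe sets 0.0572 in batch 1 and 0.119 in batch 2), and the sources used here do not state how the authors scaled the values. No fold change can be taken from them, no gene's level can be set against another's, and a shift common to all genes is not kept. All differences below are in score units. In bulk RNA, fewer cells of a type and less RNA per cell cannot be told apart.

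One array stood apart and touched the members directly. The batch 2 array of the untreated well of gut 3 correlated with the batch 1 array of the same RNA at r = 0.117 across probe sets, below its best match to another untreated RNA (r = 0.159). The other RNAs that were run in both batches gave r between 0.247 and 0.325, and the array of the treated well of gut 8 (r = 0.247) was the lowest of these. The untreated array of gut 2 was read in batch 2 only, so it had no batch 1 array of its own RNA. Its best match among untreated batch 1 arrays was gut 3, at r = 0.388, above every r between arrays of the same RNA. Whether the labels of the untreated gut 2 and gut 3 arrays are right could not be checked. The median score of the 47 members on the untreated gut 3 array was -1.01, against 0.03, 0.43 and 0.09 on the untreated arrays of guts 2, 8 and 9. On the 8 untreated arrays of batch 1 this median ran from -0.90 to 0.01, with a middle value of -0.29, and was -0.50 for gut 3. Of the 47 members, 34 had their lowest untreated value of batch 2 on this array, among them all 8 alpha-ring genes, and 11 scored below -1.5. In the comparison with whole gut, the calls and most differences of single members are given with and without it.

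The promoters of members that rose with GDNF are shown first, because these genes carry the main comparison. Promoter windows from RefSeq (GRCm38.p6), reaching from 250 bases before to 50 bases after the start, were at hand for 39 of the 47 members, 41 windows in all. They were searched on both strands for CCAAT (the CCAAT box, bound by the Nfy factors), TGACNNNGC (the core of the antioxidant response element, bound by Nfe2l1 and Nfe2l2 with small Maf proteins) and GAAANNGAA (the core of the interferon response element). A CCAAT box was in the windows of 14 of the 39 members (35.9%) and in those of 41.1% of the 27025 genes with a window (37.4% of all 32851 windows of 300 bases). The antioxidant core was in 6 members (15.4%) against 14.0% of all genes and 12.4% of all windows, and the interferon core in 7 (17.9%) against 9.76% and 8.56%. These matches are descriptions of letters and not binding sites. Of the 10 members that rose with GDNF, 9 had a window. A CCAAT box was in 4 of these, the antioxidant core in 1 (Psmd12) and the interferon core in 0. The 160 bases before the start are printed 5′ to 3′ for the 4 with a CCAAT box there, with each match to CCAAT, or to its reverse complement, in capitals. They lie at chr7:114276117-114276276 (minus strand, Psma1), chr12:55384062-55384221 (plus strand, the first of 2 starts of Psma6), chr17:34187331-34187490 (minus strand, Psmb9) and chr2:61711534-61711693 (plus strand, Psmd14).
Psma1: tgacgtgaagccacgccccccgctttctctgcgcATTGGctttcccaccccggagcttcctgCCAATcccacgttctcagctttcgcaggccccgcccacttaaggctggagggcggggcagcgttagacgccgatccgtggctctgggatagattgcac
Psma6: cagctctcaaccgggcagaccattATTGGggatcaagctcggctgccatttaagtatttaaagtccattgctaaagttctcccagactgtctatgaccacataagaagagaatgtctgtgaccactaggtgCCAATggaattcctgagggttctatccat
Psmb9: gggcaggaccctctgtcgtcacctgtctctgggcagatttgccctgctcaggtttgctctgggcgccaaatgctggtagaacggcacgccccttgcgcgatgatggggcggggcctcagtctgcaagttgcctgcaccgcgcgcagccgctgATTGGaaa
Psmd14: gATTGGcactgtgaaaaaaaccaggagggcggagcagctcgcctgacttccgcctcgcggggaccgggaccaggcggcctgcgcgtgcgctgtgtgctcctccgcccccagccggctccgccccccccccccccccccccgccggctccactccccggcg
Psma1 and Psma6 each held a pair of boxes in this stretch and Psmb9 and Psmd14 held 1 each. In Psmb9 the box lay a few bases before the start. The CCAAT box of the Psmd14 stretch lay at its far end.

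The first comparison asked which proteasome genes differ between GDNF-treated and untreated ENCCs of the same gut. Of the 47 members, 10 rose and 2 fell (limma on 9 within-gut differences, Benjamini-Hochberg adjusted p under 0.05 over 18193 genes). That is 21.3% of the members higher, where 18.3% of all genes were called higher, and 4.26% lower, where 13.2% of all genes were called lower. The share of members that rose was thus near the background. The mean difference was above 0 in 38 members and below 0 in 9, with a median of 0.44 over the members and 0.01 over all genes. By class, 2 of 15 alpha- and beta-ring genes rose, 2 of 4 immuno- and thymoproteasome genes, 5 of 17 regulatory particle genes, 1 of 3 base chaperones and 0 of 4 core chaperones. The falls were 1 non-ATPase subunit (Psmd8) and 1 activator (Psme4), and 35 members passed the test in neither direction.

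**Figure D1:**
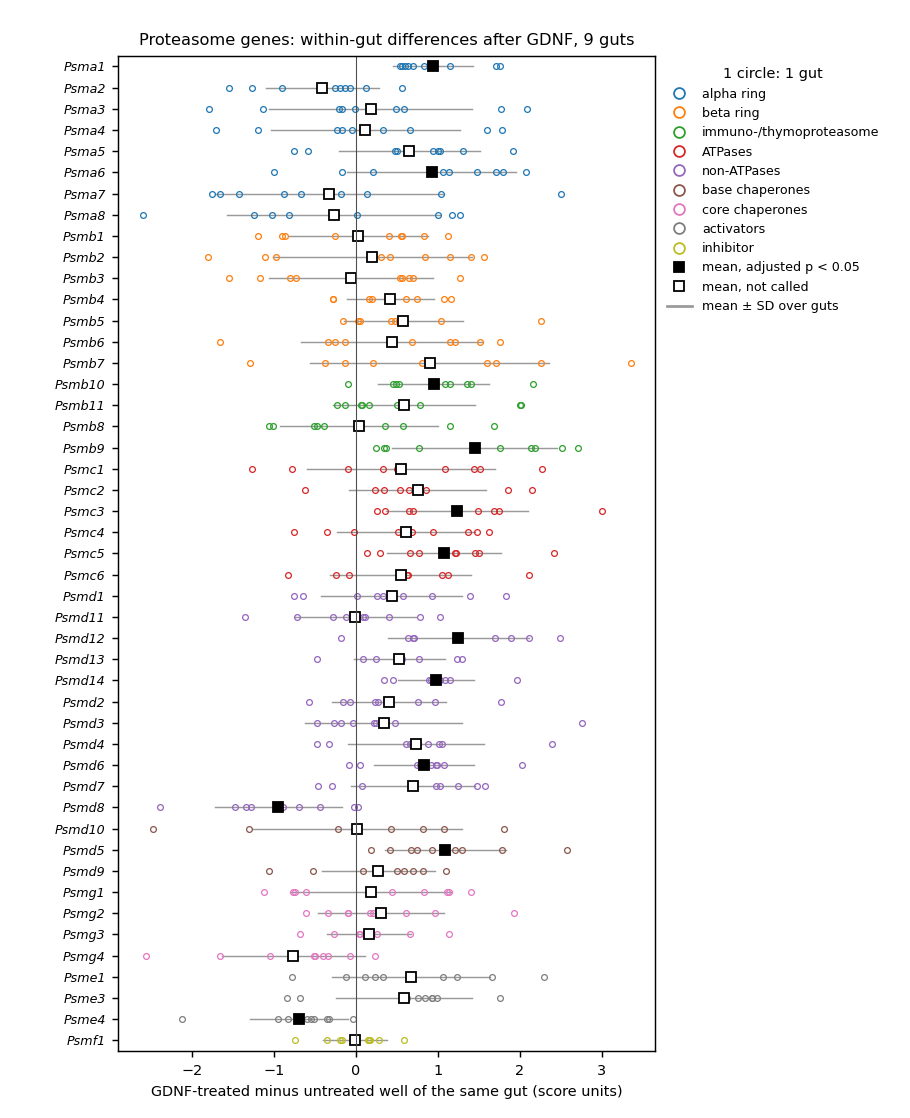
Difference in score between the GDNF-treated and the untreated well of the same gut (x axis, score units) for each of the 47 proteasome genes. Circles are the 9 guts, coloured by class, squares the mean (filled where limma called the gene) and grey lines the mean ± SD. The means of Psmb9, Psmd12 and Psmc3 lie farthest to the right, and Psmd8 and Psme4 are the filled squares left of 0.

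In the alpha ring, Psma1 had within-gut differences from 0.53 to 1.76 with a median of 0.70. All 9 guts lay above 0, and the mean was 0.94 ± 0.49 (SD, n = 9 guts, limma adjusted p = 0.00411). Of its 4 probe sets 2 were called, and counted by its middle probe sets it was not (limma adjusted p = 0.0836). Psma6 was below 0 in guts 1 and 2 and reached 2.07 in gut 7, with a median of 1.14. It was higher in 7 of 9 guts (mean 0.92 ± 1.03, limma adjusted p = 0.0375), and this call was lost when any one of guts 3, 4, 5, 6, 7 or 8 was left out (limma adjusted p 0.0681 to 0.0935). It was also lost with the most reproducible probe set (0.50, limma adjusted p = 0.384), with arrays centred on the gene median (0.0516) and with genes ranked again (0.0528). The other 6 alpha-ring genes had means between -0.41 (Psma2) and 0.65 (Psma5) and did not pass the test. The median over the 8 alpha-ring genes was 0.15.

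Limma called 0 of the 7 beta-ring genes (2 at an unadjusted p under 0.05), and the beta-ring median was 0.42. The catalytic subunits were above 0 on average but spread widely between guts. Psmb5 ranged from -0.15 to 2.25 with a median of 0.47 (mean 0.58 ± 0.72, SD, n = 9, limma adjusted p = 0.0996), and gut 3 lay far above the next gut, at 1.04. Without gut 3 the mean was 0.37 (limma adjusted p = 0.23). Psmb6 ranged from -1.65 to 1.75 (mean 0.44 ± 1.11, limma adjusted p = 0.355). Psmb7 ranged from -1.30 to 3.35 (mean 0.90 ± 1.46, limma adjusted p = 0.11). Leaving out gut 4, the lowest, made Psmb7 a call (1.18, limma adjusted p = 0.0355).

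Psmb9, an inducible subunit that takes the place of Psmb6, had the largest mean difference of all 47 members. Its within-gut differences ran from 0.24 to 2.70 with a median of 1.76. All 9 guts were above 0, and the mean was 1.45 ± 1.01 (SD, n = 9, limma adjusted p = 0.00277). Psmb10, which takes the place of Psmb7, ranged from -0.10 to 2.16 with a median of 1.09 and was higher in 8 of 9 guts (mean 0.95 ± 0.67, limma adjusted p = 0.00905). The constitutive partners Psmb6 and Psmb7 were not called, and the difference between inducible and constitutive subunits was not tested. Psmb8, which takes the place of Psmb5, had a mean of 0.03 ± 0.96 (limma adjusted p = 0.947) over a pair of probe sets that pointed opposite ways (0.86 and -0.79, neither called). Psmb11 had a mean of 0.58 ± 0.87 (limma adjusted p = 0.135).

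All 6 ATPase genes had a positive mean difference, from 0.55 to 1.24 with a median of 0.68, and 2 rose. Psmc3 ranged from 0.26 to 3.01 with a median of 1.24, above 0 in all 9 guts (mean 1.24 ± 0.87, SD, n = 9, limma adjusted p = 0.0041). Psmc5 ranged from 0.14 to 2.42 with a median of 1.21, also above 0 in all 9 guts (mean 1.07 ± 0.70, limma adjusted p = 0.0047). For both, gut 3 was the highest. Psmc2 was just outside the threshold (0.75 ± 0.83, limma adjusted p = 0.0504), and Psmc1, Psmc4 and Psmc6 had means of 0.55, 0.61 and 0.55.

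Among the 11 non-ATPase genes 3 rose and 1 fell, with a median of 0.53. Psmd12, a scaffold subunit of the lid, ranged from -0.18 to 2.49 with a median of 1.20 and was higher in 8 of 9 guts (mean 1.25 ± 0.86, SD, n = 9, limma adjusted p = 0.00372). Psmd14, the metalloprotease of the lid that removes ubiquitin chains from the substrate, ranged from 0.34 to 1.97 with a median of 0.96. It was above 0 in all 9 guts (mean 0.98 ± 0.46, limma adjusted p = 0.00296). Psmd6, another lid subunit, was higher in 8 of 9 guts (mean 0.83 ± 0.61, limma adjusted p = 0.0145). Psmd8, also of the lid, ranged from -2.38 to 0.02 with a median of -0.88 and was above 0 in 1 gut (mean -0.94 ± 0.77, limma adjusted p = 0.0134). The ubiquitin receptor Psmd4 ranged from -0.47 to 2.39 (mean 0.73 ± 0.83) and missed the threshold (limma adjusted p = 0.0572), but it was called without gut 1, without gut 6 and without the doubted arrays of guts 3 and 8 (limma adjusted p 0.0241 to 0.0429). By its middle probe set (0.0428) and with RNA as a random block (0.0164) it was called as well.

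Of the assembly chaperones only Psmd5 was called. It ranged from 0.18 to 2.57 with a median of 0.93 and was above 0 in all 9 guts (mean 1.09 ± 0.74, SD, n = 9, limma adjusted p = 0.00502). Psmd9 and Psmd10 had means of 0.27 ± 0.69 and 0.02 ± 1.28. Psmg1, Psmg2 and Psmg3 had means of 0.18 ± 0.99, 0.30 ± 0.77 and 0.16 ± 0.51, none called. Psmg4 was lower in 8 of 9 guts, from -2.56 to 0.23 (mean -0.76 ± 0.87), and missed the threshold at limma adjusted p = 0.0529. It was called without gut 2 and without gut 4 (limma adjusted p 0.0485 and 0.036). The most reproducible probe set (-1.21, 0.0228), genes ranked again (0.0354), centred arrays (0.037) and RNA as a random block (0.0417) also made it a call. Its other probe set differed by -0.32 and was not called.

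Of the activators 1 was called. Psme4, which opens the core independently of ATP, was lower in all 9 guts, from -2.12 to -0.04 with a median of -0.54 (mean -0.70 ± 0.60, SD, n = 9, limma adjusted p = 0.0336). All 6 of its probe sets had a negative mean, and the call was lost without gut 4, 7, 8 or 9 (limma adjusted p 0.0503 to 0.0721), with the most reproducible probe set (-0.33, 0.565) and by its middle probe sets (0.0844). Psme1 had a mean of 0.67 ± 0.97 and Psme3 of 0.59 ± 0.83, and neither passed the test (limma adjusted p = 0.108 and 0.121). Both were called without gut 1 (limma adjusted p = 0.0394 and 0.0463), and Psme3 also without gut 2 (0.0412). Psme3 was called, too, with the most reproducible probe set (0.0215), by its middle probe set (0.0268) and with RNA as a random block (0.0261). Its probe sets differed by 1.57, 0.87 and -0.68, the last not called. The inhibitor Psmf1 lay close to 0 (mean -0.01 ± 0.39, limma adjusted p = 0.971).

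The members moved by different amounts in different guts. Their median within-gut difference was -0.17 in gut 1 and between 0.17 and 1.08 in the other 8 guts, with gut 3 the highest. For the ATPases the median was -0.22 in gut 1, 0.40 to 1.37 in 7 guts and 2.06 in gut 3, whereas the alpha- and beta-ring median was above 0 in 6 of 9 guts. Being higher in all 9 guts was about as common among members (6 of 47, 12.8%) as among all genes (11.7%), and 1 member (2.13%) was lower in all 9 against 6.14% of all genes.

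**Figure D2:**
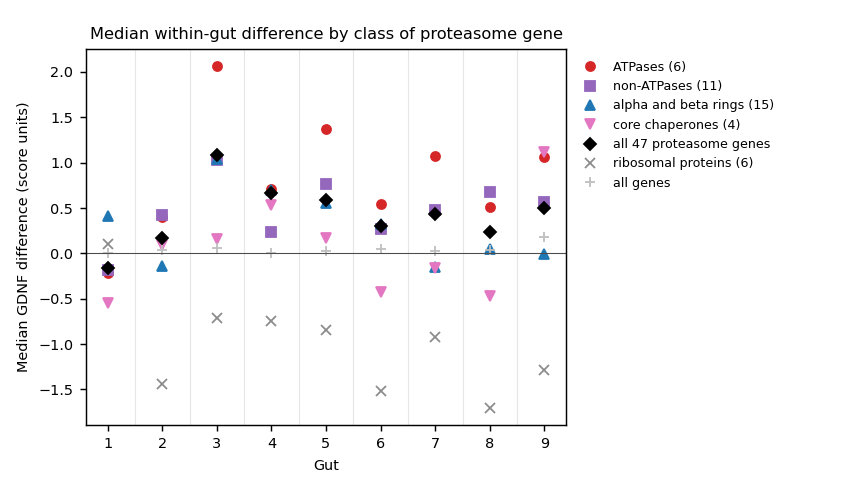
Median within-gut GDNF difference (y axis, score units) in each of the 9 guts (x axis) for 4 classes of proteasome gene, all 47 of them, 6 ribosomal protein genes and all genes. The ATPase medians lie above 0 in 8 guts and peak at 2.06 in gut 3, while the ribosomal protein medians lie below 0 in all guts but gut 1.

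The median difference over the members was 0.54 in batch 1 alone and 0.56 in batch 2 alone, and no test compared the batches. In batch 2 alone, with 4 guts, limma called 0 of 18193 genes (3516 at an unadjusted p under 0.05, of which 3 were members, all higher). Where a gut was run in both batches, the median member difference was 0.93 in batch 1 and 1.48 in batch 2 for gut 3, 0.91 and -0.09 for gut 8, and 0.62 and 0.29 for gut 9. Gut 2, paired in batch 2 only, stood at 0.17, and it rests on the untreated gut 2 array that best matched gut 3 of batch 1. The batch 2 value of gut 3, the highest, includes the untreated array that stood apart. Without the doubted arrays of guts 3 and 8, 13 members rose and 2 fell (27.7% and 4.26%), against 18.4% and 14.0% of all genes.

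Other lists moved in the same guts, where 18.3% of all genes were called higher and 13.2% lower. Ribosomal protein genes fell (5 of 6, median -0.98), with a median of -1.70 to 0.11 over the guts. Of the neuron markers 8 of 10 rose, with a mean difference of 0.76 to 1.72 over the guts, and of the mesenchyme markers 5 of 8 fell, with a mean difference below 0 in every gut, at most -0.08. The hybridisation controls, spiked into every array, differed by -0.72 ± 0.99 (SD, n = 9) between treated and untreated wells. The part of these shifts in the proteasome differences was not tested, except that with the controls as a covariate 11 members rose and 2 fell. These are 23.4% and 4.26% of the members, against 18.3% and 13.3% of all genes in that fit.

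Genes that work with the proteasome were taken from lists written for this comparison. The counts in this and the next paragraph stand beside 18.3% of all genes called higher and 13.2% called lower. No test compared a list with all genes. Of 18 measured partners of the proteasome 4 rose and 2 fell. Zfand2a, an arsenite-inducible proteasome-associated protein, rose by 1.18 ± 0.37 (limma adjusted p = 0.000549, 9 of 9 guts), and Usp14, a deubiquitinase docked on the regulatory particle, by 0.95 ± 0.32 (0.00198, 9 of 9). Sem1, the small lid subunit that does not carry a Psm symbol, fell in all 9 guts (-1.19 ± 0.53, limma adjusted p = 0.00113), and Faf2, a cofactor of the segregase Vcp, in 7 of 9 (-1.13 ± 0.92, 0.00898). Of 7 measured genes for ubiquitin supply and activation 4 rose and 0 fell, the largest being Uchl1 (1.60 ± 0.70, limma adjusted p = 0.00034), a hydrolase abundant in neurons and also among the neuron markers, and Usp5 (1.47 ± 1.01, 0.00252).

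Of 12 genes for transcriptional control of the proteasome 3 rose and 3 fell. Nfe2l1, the factor that drives proteasome genes when proteasome activity is short, was not called (0.58 ± 1.84, limma adjusted p = 0.422). Maff, a small Maf partner, rose (1.23 ± 0.29, limma adjusted p = 0.000326, 9 of 9 guts), as did Keap1, the adaptor that holds Nfe2l2 down (1.05 ± 0.50, 0.00214, 9 of 9). Nfyc, a subunit of the factor that binds the CCAAT box, fell (-1.15 ± 0.79, limma adjusted p = 0.00477), and so did Mafk (-0.78 ± 0.79, 0.0363). Among 17 genes of antigen presentation on MHC class I, the best known use of the immunoproteasome, 1 rose and 4 fell. Tapbpl, a peptide editor, rose by 1.10 ± 0.76 (limma adjusted p = 0.00536), while the interferon gamma receptor Ifngr1 (-1.31 ± 1.04, 0.0061) and the chaperone Calr (-1.13 ± 0.69, 0.00329) fell in all 9 guts. Tap1, the peptide transporter gene beside Psmb9, was not called (0.03 ± 0.47, limma adjusted p = 0.923).

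Whether members varied together was described by Pearson's r between pairs of genes, with no test. Over the 9 within-gut differences, the median r was 0.14 over the 1081 pairs of members, 0.17 within the alpha and beta rings, 0.36 within the regulatory particle and 0.43 among the ATPases, and 0.001 over all pairs of genes. On the 17 ENCC arrays of batch 1 centred within treatment, the values were 0.09 for the members, 0.09 within the alpha and beta rings, 0.24 within the regulatory particle, 0.27 among the ATPases and -0.001 over all pairs. Over the 8 whole guts they were 0.13, 0.21, 0.23 and 0.13, and 0.008 over all pairs, so the ATPases did not stand highest there. These points share arrays and wells. Among the within-gut differences, gut 3 was the highest for the ATPases (median 2.06) and includes the untreated array that stood apart. The values of r were not computed without gut 3, and the arrays of batch 1 do not include that array. Each member was also set against the alpha-ring, beta-ring and regulatory particle genes other than itself, over the within-gut differences. By median r with these genes, Psmc5 (0.48) and Psmd11 (0.47) were the most like them and Psmd7 (-0.40) and Psmg4 (-0.37) the least. Psmb9 and Psmb10 correlated at 0.45 over the within-gut differences and at 0.87 over the 8 whole guts, and Psmb8 and Psmb9 at 0.15 and 0.54. Whole gut 4 was the lowest of the 8 for each of these genes (Psmb9 1.09, Psmb10 0.37, Psmb8 -0.000317). The values of r were not computed without whole gut 4.

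The second comparison set untreated ENCCs against whole gut, using the 4 untreated and 8 whole-gut arrays of batch 2. Here 1 member was higher in ENCCs and 4 were lower (limma with 1 array weight per group, which lets cells and tissue differ in spread, adjusted p under 0.05 over 18193 genes). That is 2.13% of the members higher against 9.01% of all genes, and 8.51% lower against 11.7%. The median difference was -0.44 over the members and -0.01 over all genes, with 34 members below 0. Without the untreated gut 3 array the median was 0.02 with 24 members above 0, and 13 members changed sign, none of them a call with or without the array. Within batch 2 the shift of the median therefore rested on this array, while 4 members were lower with and without it. When the RNAs of both batches entered, the median was -0.53, with 3 members higher (6.38%, against 21% of all genes) and 20 lower (42.6%, against 25% of all), although no source states that scores of the batches can be set against each other and the tissue was read in batch 2 only.

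**Figure D3:**
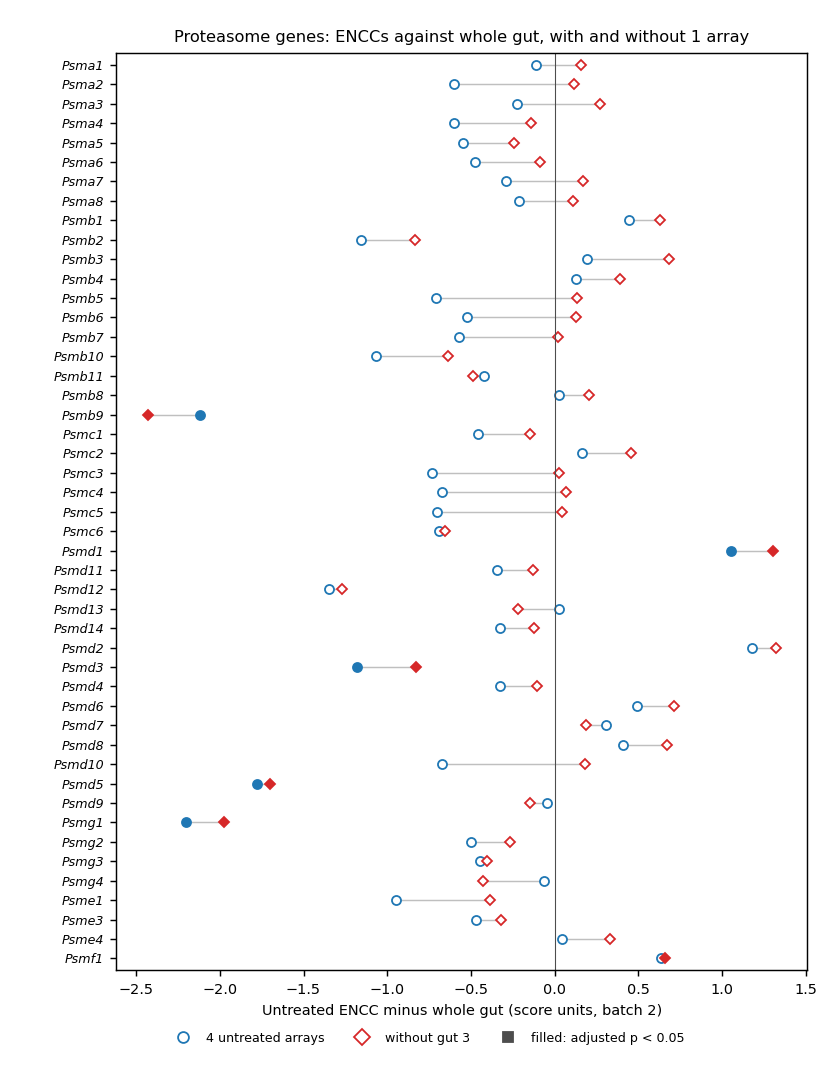
Untreated ENCCs minus whole gut (x axis, score units, batch 2) for each of the 47 proteasome genes, with all 4 untreated arrays (circles) and without the array of gut 3 (diamonds); filled symbols were called by limma. Most open symbols move right without the array, while Psmb9, Psmd3, Psmd5 and Psmg1 stay below 0 and filled.

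Psmg1, a core chaperone, had the largest difference below whole gut. Its untreated scores were -1.16, -0.72, 0.83 and 0.90 in guts 2, 3, 8 and 9, and the whole guts ran from 2.04 to 2.33 with a median of 2.14. The groups did not overlap (difference -2.20, SE 0.38, limma adjusted p = 0.00104; -1.98 and 0.00288 without gut 3). Psmb9 scored -1.18, 0.17, 0.13 and -2.13 in untreated ENCCs and 1.09 to 1.51, median 1.40, in whole gut. These groups did not overlap either (-2.12, SE 0.44, limma adjusted p = 0.00369; -2.43 and 0.00173 without gut 3). Psmd5 scored -1.73, -1.05, -0.51 and -0.05 against 0.80 to 1.06, median 0.94, in whole gut (-1.78, SE 0.32, limma adjusted p = 0.0015; -1.70 and 0.00261 without gut 3). Psmd3, a scaffold subunit of the lid, scored 0.22, -1.37, 0.15 and -0.28 against 0.73 to 0.98, median 0.86 (-1.18, SE 0.32, limma adjusted p = 0.0171; -0.83 and 0.033 without gut 3). The Psmd3 call was lost without the untreated array of gut 9 (limma adjusted p = 0.0695).

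Psmd1, a large scaffold of the base that docks ubiquitin receptors, was the one member called higher in untreated ENCCs. It scored -0.30, -0.99, -0.23 and 0.51 in guts 2, 3, 8 and 9 and -1.45 to -1.15, median -1.32, in whole gut, so all 4 ENCC arrays lay above all 8 whole guts (1.06, SE 0.34, limma adjusted p = 0.0433; 1.30 and 0.0102 without gut 3). The call was lost without the untreated array of gut 2, 8 or 9 (limma adjusted p 0.15 to 0.251) and without whole gut 1 or 8 (0.0528 and 0.0516). It was also lost with genes ranked again (0.0784). Psmd1 has 1 probe set, so its difference stayed at 1.06 in the probe-set fits. There only the fit over the other genes changed, and Psmd1 was not called. The limma adjusted p was 0.0668 with the most reproducible probe set of each gene and 0.088 with probe sets taken singly. The inhibitor Psmf1 also lay above every whole gut, at -0.25, -0.24, 0.11 and -0.22 against -0.83 to -0.68, median -0.80. Its difference of 0.63 (SE 0.23) missed the threshold with 4 arrays (limma adjusted p = 0.0702) and passed it without gut 3 (0.66, 0.0352).

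The catalytic subunits were low on the gut 3 array. Psmb5 scored 0.30, -2.94, 0.56 and 0.48 in untreated ENCCs and 0.29 to 0.33 in whole gut. On 3 of the 4 arrays it lay at or just above the tissue and on 1 far below (-0.71, SE 0.45, limma adjusted p = 0.333; 0.14 and 0.684 without gut 3). Psmb6 scored 0.38, -2.06, 0.73 and 0.51 against 0.33 to 0.54, and Psmb7 0.44, -1.99, 0.38 and 0.36 against 0.31 to 0.44. Without gut 3 these differed by 0.13 and 0.02 (limma adjusted p = 0.8 and 0.962). The ATPases Psmc3, Psmc4 and Psmc5 and the base chaperone Psmd10 had the same pattern, with values from -2.97 to -2.52 on that array. Within batch 2 none of these 7 genes was called with or without it. With the RNAs of both batches, Psmb5 (-0.70, limma adjusted p = 0.0403) and Psmb6 (-0.98, 0.000609) were called lower.

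Among the other immunoproteasome genes, Psmb10 scored -0.21, -1.60, 0.42 and 0.12 against 0.37 to 0.89 in whole gut (-1.07, SE 0.44, limma adjusted p = 0.114; -0.64 and 0.306 without gut 3). Psmb8 did not separate the groups (0.03, SE 0.49, limma adjusted p = 0.985; 0.21 without gut 3). Psme1 was below every whole gut (0.03, -1.86, 0.55 and 0.59 against 0.70 to 0.84) but was not called (-0.95, SE 0.35, limma adjusted p = 0.0763; -0.39 and 0.229 without gut 3). The activators Psme3 and Psme4, the ubiquitin receptor Psmd4 and the deubiquitinase Psmd14 differed by -0.47, 0.04, -0.32 and -0.32, and without gut 3 by -0.32, 0.33, -0.11 and -0.13, none called. Psmd9 differed by -0.04 (SE 0.47; -0.15 without gut 3), and the core chaperones Psmg2, Psmg3 and Psmg4 by -0.50, -0.44 and -0.06 (-0.27, -0.40 and -0.43 without gut 3), none called. In all, 42 members passed the test in neither direction. With the RNAs of both batches, Psmb10, Psme1, Psmg2 and Psmg3 were called lower (limma adjusted p 9.79e-05 to 0.0131) and Psmf1 higher (0.000424).

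The third comparison set GDNF-treated ENCCs against the same 8 whole guts, so its values share the tissue arrays with the second and are given beside it only. Of the 47 members 3 were higher and 3 lower, 6.38% in each direction, against 16.0% of all genes higher and 15.9% lower. The median was 0.13 over the members and -0.02 over all genes. The regulatory particle had 15 of 17 genes above 0 with a median of 0.47 and 2 calls, and the alpha and beta rings a median of -0.02 with 1 call.

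**Figure D4:**
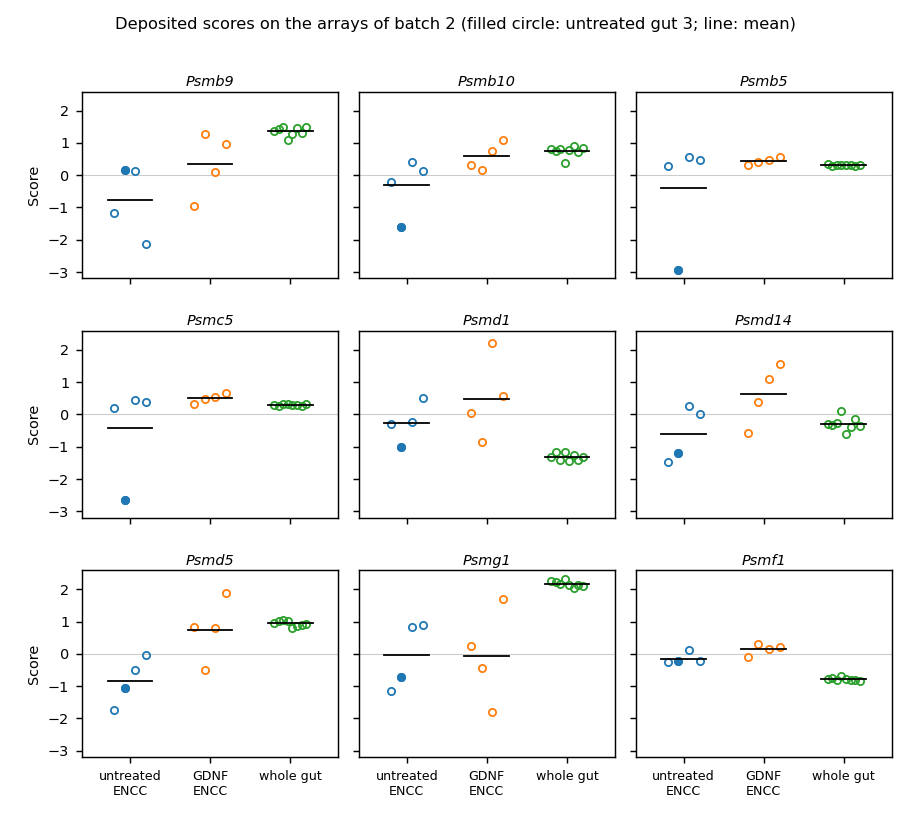
Deposited scores (y axis) of 9 proteasome genes on the batch 2 arrays of 4 untreated ENCC wells, 4 GDNF-treated ENCC wells and 8 whole guts. Circles are arrays, the filled circle is the untreated well of gut 3 and lines are means. Psmg1 lies highest in whole gut, at 2.04 to 2.33, Psmd1 lowest there, at -1.45 to -1.15, and on the untreated gut 3 array Psmb5 and Psmc5 drop to -2.94 and -2.65.

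Psmd1 scored 0.03, -0.86, 2.22 and 0.57 in the treated wells of guts 2, 3, 8 and 9, all above the highest whole gut at -1.15 (1.80, SE 0.42, limma adjusted p = 0.00482). Psmd2, which partners Psmd1 in the base, scored 1.21, -0.24, 0.57 and -0.68 against -1.44 to -0.85 (1.37, SE 0.47, limma adjusted p = 0.0416). That call was lost without the treated array of gut 2, 3 or 8 (limma adjusted p 0.0795 to 0.205) and without whole gut 2 or 4 (0.0541 and 0.052). It was also lost with genes ranked again (0.0785), with the most reproducible probe set (0.112) and by its middle probe sets (0.248). Psmf1 scored -0.08, 0.32, 0.14 and 0.21 against -0.83 to -0.68 (0.93, SE 0.19, limma adjusted p = 0.00237), with no overlap.

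On the lower side, Psmg1 scored 0.24, -0.44, -1.81 and 1.71 against 2.04 to 2.33 (-2.24, SE 0.44, limma adjusted p = 0.00138). Psmg4 scored -0.62, -0.54, -0.55 and -0.63, in a narrow range below the whole guts at 0.57 to 0.63 (-1.19, SE 0.17, limma adjusted p = 0.00012). This call rested on 1 of its probe sets (-2.10), while the other differed by -0.28 and was not called. The untreated wells scored -0.55, 1.63, 1.11 and -0.03 for Psmg4 and overlapped the tissue. Psmb2, a beta-ring subunit, scored 1.49, 0.40, -1.32 and -0.12 against 1.04 to 1.47 (-1.18, SE 0.41, limma adjusted p = 0.0424), with gut 2 above every whole gut. Its call was lost without the treated array of gut 3, 8 or 9 (limma adjusted p 0.0849 to 0.273) and without whole gut 2, 3, 4 or 7 (0.0505 to 0.0607). It was also lost with genes ranked again (0.0669), and without gut 8 the difference was -0.70. Psmb2, too, has 1 probe set, and its difference stayed at -1.18 in the probe-set fits, where it was not called. The limma adjusted p was 0.0593 with the most reproducible probe set of each gene and 0.0574 with probe sets fitted singly.

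Psmb9 scored -0.94, 1.27, 0.10 and 0.98 in the treated wells, reaching into the whole-gut range of 1.09 to 1.51 (-1.02, SE 0.40, limma adjusted p = 0.0716). Psmd5 scored 0.84, -0.51, 0.79 and 1.88 and lay on both sides of the tissue (-0.19, SE 0.34, limma adjusted p = 0.758). Psmd14 scored -0.56, 0.40, 1.10 and 1.58 against -0.60 to 0.10 (0.91, SE 0.48, limma adjusted p = 0.191). Psmb5, Psmb6, Psmb7, Psmb8 and Psmb10 differed by 0.13, -0.02, 0.15, -0.36 and -0.17, none called. The differences of Psme1, Psme3 and Psme4 were -0.35, 0.19 and -0.70, those of Psmd4, Psmd9 and Psmd10 were 0.58, 0.62 and 0.17, and those of Psmg2 and Psmg3 were -0.33 and -0.72, none of them called. In all, 41 members passed the test in neither direction.

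The list counts against whole gut stand beside the shares of all genes. These were 9.01% higher and 11.7% lower for untreated ENCCs, and 16.0% and 15.9% for treated ones. The proteasome partners had 3 genes higher and 0 lower in untreated ENCCs against whole gut, led by Faf2 (1.93, limma adjusted p = 0.0115) and the segregase Vcp (1.43, 0.04). In treated ENCCs 5 were higher and 2 lower, with Zfand2a (2.56, limma adjusted p = 1.31e-05) and the Vcp cofactor Nploc4 (2.02, 0.00287) the highest and Ubqln4 (-1.40, 0.0034) and Sem1 (-0.77, 0.0478) the lower ones. Among the 7 genes for ubiquitin supply, 2 were higher in untreated and 3 in treated ENCCs, and 0 were lower in either. Uchl1 differed by 1.73 and 3.24 (limma adjusted p = 0.000199 and 7.92e-07) and Usp5 by 0.86 and 2.02 (0.0354 and 0.00162).

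The 12 transcriptional regulators had 3 higher and 1 lower in untreated ENCCs and 2 higher and 3 lower in treated ones. Nfe2l1 was higher than whole gut in both (2.39 and 2.77, limma adjusted p = 5.9e-05 and 0.000306), as was its partner Mafg (1.71 and 2.95, 0.00124 and 5.69e-05). Nfyb was lower in both (-1.02 and -1.38, limma adjusted p = 0.0307 and 0.00125), and Nfe2l2 was called lower in treated ENCCs (-1.73, 0.00353). Of the 17 antigen presentation genes 0 were higher and 3 lower in untreated ENCCs, and 2 higher and 3 lower in treated ones. Irf8 and Irf1, factors of the interferon response, were lower in both (Irf8 -2.24 and -1.89, limma adjusted p = 4.42e-05 and 6.33e-05; Irf1 -1.78 and -2.42, 0.0122 and 0.00206), while Irf9 (1.60, 0.0292) and Tap2 (1.50, 0.0053) were higher in treated ENCCs.

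Markers of other cells of the gut differed in part between ENCCs and whole gut. Of all genes, 9.01% were higher and 11.7% lower in untreated ENCCs, and 16.0% and 15.9% in treated ones. All 11 epithelium markers and all 8 endothelium markers were lower in untreated and in treated ENCCs. Macrophage and leukocyte markers, whose cells are known to express the immunoproteasome, were lower in 8 of 10 for untreated ENCCs and in 7 of 10 for treated ones. Their mean score ran from 1.56 to 1.65 over the whole guts, from -0.59 to 0.34 over the untreated wells and from -0.22 to 0.43 over the treated wells. Smooth muscle markers were lower in 4 of 8 for untreated and 6 of 8 for treated ENCCs. Mesenchyme markers were lower in 2 of 8 for untreated ENCCs, with 4 above and 4 below 0, and in 6 of 8 for treated ones. Markers of dividing cells were lower in 8 and 7 of 9. ENCC markers were higher in 7 of 10 for untreated and 9 of 10 for treated ENCCs, and neuron markers in 8 and 10 of 10. The part of these cell types in the proteasome differences, Psmb9 included, was not tested.

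Probe sets of one gene often differed. Of the 26 members with several probe sets, 12 had both signs among them for GDNF, 17 for untreated ENCCs against whole gut and 13 for treated ENCCs, but none was called in both directions. Taken singly, 21 of the 100 probe sets rose and 4 fell with GDNF, where 16.9% of all 34945 probe sets rose and 13.2% fell. The correlation of a probe set between batches over the 7 RNAs read in both had a median of 0.36 for the members and 0.37 for all probe sets.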

How the data were processed

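RNA was read on Affymetrix arrays with 45101 probe sets, in 2 batches. The deposited values are a score with no unit. The submitters' processing notes name RMA, with no version, and the later steps that turned signals into a normal score of ranks are not given in the sources used here. The authors' scores were used as deposited. Genes were named from the platform annotation (probe sets with 1 symbol; several probe sets of a gene averaged), giving 18193 genes. The precision is limited by the number of arrays.

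Scores were compared with limma 3.58.1 (R 4.3.3, statmod 1.5.0; lmFit and eBayes, no trend), with Benjamini-Hochberg adjustment over all genes and a threshold of 0.05. For GDNF the fit was paired: the difference between wells of 1 gut within a batch, averaged where a gut was in both batches, n = 9 (the labels state that the cells of 1 gut were divided over both wells). For whole gut, 4 against 8 arrays of batch 2 were fitted with 1 array weight per group, a departure from the planned equal weights. It was made because ENCC arrays spread more than whole guts. The median SD of a gene was 0.755 over untreated and 0.709 over treated ENCC arrays, and 0.154 over whole guts. The labels number the whole guts but name no litter or animal, so these p-values measure the spread between the samples.

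The members and lists were chosen with earlier results of these data known. Named members are the catalytic, immunoproteasome, activator, inhibitor and chaperone genes, Psmd4 and Psmd14, and the 2 largest calls per direction and class; 2 per direction are named from each pathway list. Psmc1, Psmc2, Psmc4, Psmc6, Psmd6, Psma2, Psma5, Psmb11, Psmd7, Psmd11, Tap1 and, where not called, Nfe2l1 were named after their values were seen. Alternatives were batches singly, probe sets singly, the most reproducible probe set, centring, ranking genes again, control covariate and no pairing. Others were robust fits, all ENCC arrays with RNA as a random block, RNAs of both batches and leaving out each array.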

Additional observations from a re-analysis of the deposited data

Results flagged for a closer look

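Among 95 sets of values examined, 11 (11.6%) held a sample far from the others, where chance gives about 1 in 20 for independent sets. These sets share arrays and are not independent, so no excess over chance can be read from this share. Of the within-gut GDNF differences, gut 3 was far above the rest for Psmb5 (2.25) and Psmd14 (1.97), and gut 9 far below for Psme4 (-2.12). On the untreated array of gut 3 in batch 2, the array that stood apart, the scores of Psmb5 (-2.94), Psmb6 (-2.06), Psmb7 (-1.99) and Psmd10 (-2.97) were far below those of the other 3 untreated wells. The untreated well of gut 8 was far above the rest for Psmf1 (0.11). In treated wells, gut 2 was low for Psmd10 (0.30) and gut 9 high for Psmg2 (0.76), and among whole guts gut 4 was low for Psmb10 (0.37).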

How the results depend on the processing

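For GDNF, 9 to 15 members rose and 1 to 3 fell when single guts were left out (1 fell without gut 7, 8 or 9). That is 19.1% to 31.9% of the members higher and 2.13% to 6.38% lower. Of all genes, 16.4% to 18.5% rose and 11.1% to 13.9% fell in these fits. The paired fit changed few calls: with no replicate block 9 members rose and 1 fell, and Psmd8 and Psmd14 lost their calls (limma adjusted p = 0.0509 and 0.0533). In that fit 16.1% of all genes rose and 10.6% fell. With probe sets taken singly, where a gene counts only if its middle probe set by difference (both, for an even number) passes, 1 fell, and in batch 2 alone 0 rose and 0 fell. For untreated ENCCs against whole gut, 0 to 2 members were higher when 1 array was left out, 3 with the RNAs of both batches, 3 with equal array weights, and 0 with genes ranked again or probe sets taken singly, while 20 were lower with the RNAs of both batches and 9 with equal weights. For treated ENCCs against whole gut, 8 were higher and 12 lower with the RNAs of both batches (median difference -0.0557). These are 17.0% and 25.5% of the members, against 25.3% and 27.6% of all genes. With equal weights 9 were higher and 9 lower, 19.1% each, against 25.1% and 26.0% of all genes. With probe sets taken singly, 1 was lower. Equal weights were the planned fit, and the weight per group was chosen after seeing the data. Equal weights called 7752 genes for untreated and 9281 for treated ENCCs, and 3761 and 5805 were called with 1 weight per group. Among single members, 1217 values kept their direction and side of the threshold, 43 gained and 57 lost a call, and 0 calls changed sign. The scores keep no signal over background, so a limit set by dim probes cannot be given.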
